A study of Mus musculus with 7 samples.

Results

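*Rlim*, also called *Rnf12*, and 3 genes that encode related RING-H2 ubiquitin ligases, *Rnf6*, *Rnf44* and *Rnf111*, were examined in mouse testis. The 4 genes were chosen by name, as the closest paralog of *Rlim* and further relatives of its RING domain, and all 4 were among the 19719 genes of the expression table. RNA from total testis was measured by RNA-seq in 3 libraries of fl/Y males, labelled WT, and 4 libraries of cKO/Y Sox2-Cre males, labelled Rlim-KO, all 8 weeks old and C57BL/6. The fl/Y controls were littermates that carried the floxed *Rlim* allele on their single X chromosome. In cKO/Y Sox2-Cre males that allele is deleted by a Cre driven from *Sox2* regulatory sequence in the early embryo, so that somatic tissue and germline are both targeted. Which exons the floxed allele loses is not given in the sources used here. The comparison asked at which level *Rlim* and its relatives are transcribed in adult testis, and whether the RNA of any relative was higher where *Rlim* was lost.

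A ubiquitin ligase (E3) brings a substrate protein together with an E2 enzyme that carries activated ubiquitin, and a RING-H2 domain is the zinc-binding fold that docks the E2. RLIM is known for the ubiquitination of LIM domain cofactors and of REX1 and for its role in imprinted X inactivation in female embryos. RNF6 is known to modify the androgen receptor and LIM kinase 1, while RNF111, also called Arkadia, strengthens TGF-beta signalling by removing its inhibitors SMAD7, SKI and SKIL. Few substrates of RNF44 are established.

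The stretch of coding sequence that encodes the RING-H2 domain is shown for *Rlim*, *Rnf6* and *Rnf111* because it is the part that makes these genes a family, and because reads from near-identical stretches could be assigned to the wrong member. A script found 1 RING-H2 arrangement of cysteine and histidine codons in each of these 3 coding sequences, close to its 3′ end, and the stretch runs from the first to the last of these cysteine codons over 123 bases (41 codons). Sequences are those of the GENCODE M21 transcripts on GRCm38, read 5′ to 3′ on the sense strand, and capitals mark the bases that differ from *Rlim* at the same position of the stretch.
Rlim: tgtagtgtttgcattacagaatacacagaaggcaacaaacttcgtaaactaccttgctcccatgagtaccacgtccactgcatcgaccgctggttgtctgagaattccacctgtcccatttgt
Rnf6: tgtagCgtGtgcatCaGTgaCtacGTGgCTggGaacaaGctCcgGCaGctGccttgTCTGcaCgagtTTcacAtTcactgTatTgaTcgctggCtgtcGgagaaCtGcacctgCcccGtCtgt
Rnf111: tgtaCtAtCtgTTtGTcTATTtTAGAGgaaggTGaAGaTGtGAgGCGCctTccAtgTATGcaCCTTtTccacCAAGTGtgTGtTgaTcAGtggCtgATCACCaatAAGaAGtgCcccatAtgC
The stretch begins at coding position 1636 in *Rlim*, 1840 in *Rnf6* and 2809 in *Rnf111*, counted from the A of the start codon. *Rnf6* differed from *Rlim* at 37 bases (69.9% identical) and *Rnf111* at 66 (46.3%), and *Rnf6* and *Rnf111* were 52.8% identical to each other. The longest run of bases shared by any pair of the 4 coding sequences was 15 bases, which is shorter than the 35-base reads, and no word of 35 bases was shared between the transcripts of any pair. Members could therefore not exchange reads that match exactly over their whole length.

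*Rlim* lies on chromosome X (GRCm38 X:103957163-103981284), *Rnf6* on chromosome 5 (5:146209192-146221555), *Rnf44* on chromosome 13 (13:54679399-54693907) and *Rnf111* on chromosome 9 (9:70425424-70503725), all on the minus strand and none with an exon that overlaps another gene. Of the 35-base words in their transcripts, 0.628% in *Rlim*, 1.30% in *Rnf6* and 0% in *Rnf44* also occurred in transcripts of other genes. In *Rnf111* the share was 5.88%, with 507 of the 525 shared words in the gene model Gm6162, and the count of *Rnf111* is to that extent uncertain. The merged exons of *Rlim* span 8917 bases, of which 1803 (20.2%) are coding and 5328 follow the stop codon in the longest transcript. Those of *Rnf6* span 4022 bases with 2004 coding (49.8%), those of *Rnf44* 5202 with 1299 coding (24.97%), and those of *Rnf111* 8849 with 2970 coding (33.6%). How much of the annotated non-coding sequence the mRNA of these testes carries cannot be read from counts per gene, so comparisons of levels between genes are given per kb of merged exons and of coding sequence.

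Reads in listed genes numbered from 2822168 to 8633399 per library, and the limit that a count of 0 allows (3 reads) lay between 0.301 and 0.945 CPM (reads scaled to library size), far below every value of the 4 genes. The labels give 2 batches. Batch 2 holds fl/Y replicates 1 and 2 and cKO/Y replicates 1 and 2, and batch 1 holds the other 3 libraries. cKO/Y replicate 1 stood apart in that CT010467.1 took 19.3% of its reads, while mt-Rnr2 led in the other libraries. Summed markers of spermatogonia, spermatocytes, spermatids, Sertoli, Leydig, peritubular myoid cells and macrophages were detected in every library, and for each of these lists the ranges of fl/Y and cKO/Y libraries overlapped. Of single markers, 2 of 5 for Leydig cells, 1 of 6 for spermatogonia and 1 of 7 for Sertoli cells were lower in cKO/Y. These had an unadjusted p below 0.05 in limma, as did 1.37% of all genes in that direction. In these lists 0 markers were higher at that threshold, and 0 passed the adjusted threshold. The median log2 fold change was 0.052 over the Leydig list, 0.025 over the spermatogonia list and -0.012 over the Sertoli list. Red blood cell markers summed to 16.4 to 28.4 CPM in fl/Y and 17.3 to 23.6 CPM in cKO/Y, and the 1 epididymis marker tested reached at most 2.83 CPM. In bulk tissue, fewer cells of a type and less RNA per cell cannot be told apart.

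*Rlim*, the targeted gene, was lower in every cKO/Y library than in any fl/Y library. Its level was 99.5, 70.7 and 61.5 CPM in fl/Y replicates 1 to 3 and 32.6, 35.7, 21.7 and 20.7 CPM in cKO/Y replicates 1 to 4. The groups did not overlap, and the fall separated the genotypes in each batch, although both fl/Y and cKO/Y libraries of batch 1 lay below those of batch 2. The level averaged 77.2 ± 19.8 CPM over the 3 fl/Y libraries and 27.7 ± 7.58 CPM over the 4 cKO/Y libraries (SD), so that 35.8% of the fl/Y mean remained. The log2 fold change was -1.38 ± 0.16 (SE) on the log2(CPM + 0.5) scale, with a 95% interval from -1.73 to -1.03 (0.302- to 0.491-fold) and an adjusted p of 0.0087 in limma with batch as a term. Among all genes *Rlim* had the smallest p, and it was the 1 gene called of 19400 tested (0.00515%). Of all genes, 1.59% were lower without overlap between the groups (2.92% in either direction), and 1.37% were lower at an unadjusted p below 0.05.

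**Figure D1:**
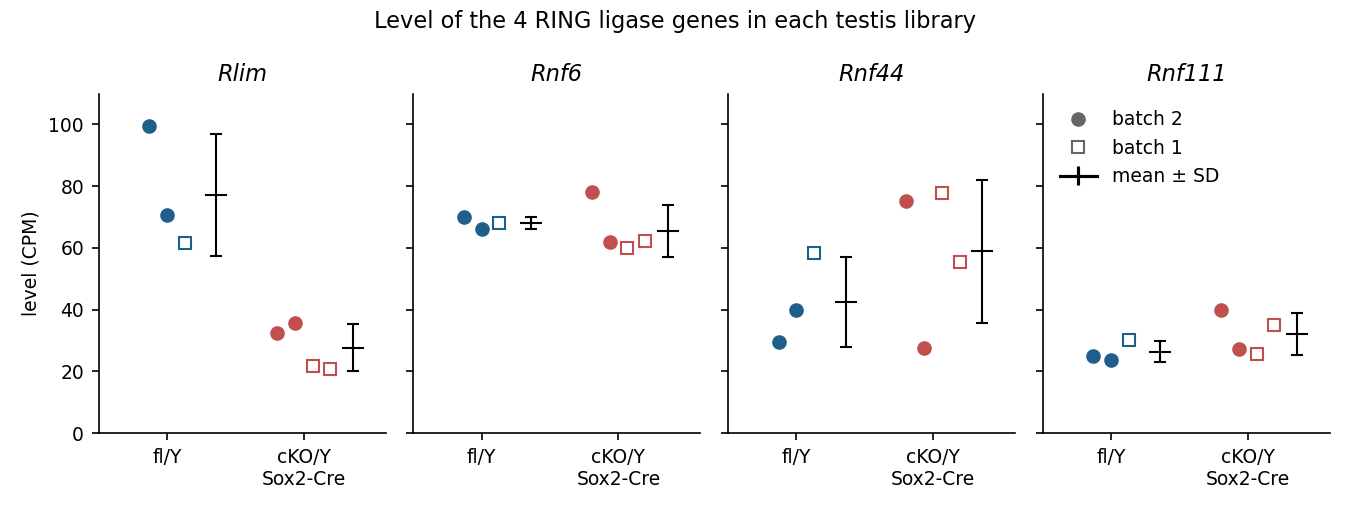
Level of each gene (CPM, vertical axis from 0) in 3 fl/Y and 4 cKO/Y Sox2-Cre testis libraries. Filled circles are batch 2, open squares batch 1, and the bar beside each group is its mean ± SD. For Rlim every cKO/Y point (at most 35.7 CPM) lies below every fl/Y point (at least 61.5 CPM), whereas the groups overlap for the other 3 genes.

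The remaining *Rlim* signal was not near 0. It rested on 69 to 206 reads per cKO/Y library, and the exact 95% Poisson interval, which covers counting error only, ran from 30.6 to 41.3 CPM in the highest of them (replicate 2) and from 17.9 to 23.7 CPM in the lowest (replicate 4). The interval of the lowest fl/Y library (replicate 3) ran from 53.9 to 69.98 CPM, above the highest in cKO/Y. Within batch 1 the cKO/Y mean was 34.5% of the fl/Y value, and within batch 2 it was 40.1%. From which part of the gene the remaining reads came was not tested, since the table has 1 value per gene. These reads measure RNA and do not give the amount of RLIM protein.

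The size of the *Rlim* change held in every alternative fit, between -1.28 and -1.52, but its call did not. Without a batch term the adjusted p was 0.921, without a trend of variance on level 0.815 and in batch 2 alone 0.872. Without fl/Y replicate 1 it was 0.154 and without fl/Y replicate 3 it was 0.634. The latter is the only fl/Y library of batch 1, so its omission gave the same log2 fold change as batch 2 alone (-1.29). On recovered reads edgeR's quasi-likelihood test gave 0.00432 and DESeq2 2.6e-08.

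*Rnf6*, the closest paralog, showed no change that passed the test. It stood at 69.9, 66.2 and 68.2 CPM in fl/Y and at 78.2, 61.8, 59.8 and 62.3 CPM in cKO/Y. In fl/Y the 3 libraries spanned a narrow range, and in cKO/Y 3 libraries lay below it and 1, replicate 1, above it. It averaged 68.1 ± 1.83 CPM over the 3 fl/Y libraries and 65.5 ± 8.49 CPM over the 4 cKO/Y libraries (SD). The log2 fold change was -0.045 ± 0.15 (SE; 95% interval -0.36 to 0.27, 0.780- to 1.21-fold, adjusted p 1.00, limma). A rise of *Rnf6* beyond 1.21-fold lay outside this interval, and a smaller one could not be told from no change. The interval is not adjusted for the number of genes tested, so 1.21-fold is not the smallest rise that could be called. The spread of the 3 fl/Y values was smaller than counting error alone would give on average (ratio of the variances 0.226), so this small SD cannot be read as the spread between animals. The log2 fold change was -0.16 within batch 1 and 0.030 within batch 2, and -0.15 without cKO/Y replicate 1.

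*Rnf44* varied more between libraries than *Rnf6* did, in both genotypes. It was measured at 29.6, 39.98 and 58.3 CPM in fl/Y and at 75.1, 27.5, 77.8 and 55.4 CPM in cKO/Y. The lowest value of all was a cKO/Y library (replicate 2), and so were the highest ones (replicates 3 and 1), so that the groups overlapped. The mean of the 3 fl/Y libraries was 42.6 ± 14.6 CPM and that of the 4 cKO/Y libraries 58.9 ± 23.2 CPM (SD), with a log2 fold change of 0.31 ± 0.26 (SE; 95% interval -0.26 to 0.87, 0.838- to 1.83-fold, adjusted p 1.00, limma). Its residual SD was 0.56 on the log2 scale, more than that of 99.0% of the 4148 genes within 1 log2 unit of its level, whose median was 0.21. Counting error was a small part of this spread, since the variance between cKO/Y libraries was 36.6 times the Poisson variance. Without cKO/Y replicate 1 the log2 fold change was -0.074, and without replicate 2 it was 0.64.

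Markers of Sertoli cells, the nurse cells of the seminiferous tubule, were low in the libraries where *Rnf44* was low. Their summed level was 354, 531 and 600 CPM in fl/Y and 661, 362, 635 and 572 CPM in cKO/Y, over 7 of 7 markers. The 3 libraries with the least *Rnf44* (cKO/Y replicate 2 and fl/Y replicates 1 and 2) were also the 3 with the lowest Sertoli sum. The summed markers of elongating spermatids, the late haploid cells, were 6557, 7434 and 9577 CPM in fl/Y and 7197, 5958, 11307 and 9636 CPM in cKO/Y, with the lowest again in cKO/Y replicate 2 and the highest in replicate 3. Spermatogonia markers, 6 of 6 measured, summed to 55.8, 61.4 and 60.2 CPM in fl/Y and to 83.1, 47.2, 75.9 and 64.0 CPM in cKO/Y, and were lowest in cKO/Y replicate 2 and fl/Y replicate 1 as *Rnf44* was. Spermatocyte markers, 5 of 5 measured, ran the other way, at 922, 773 and 600 CPM in fl/Y and 884, 944, 425 and 563 CPM in cKO/Y, with the highest sum in cKO/Y replicate 2 and the lowest in replicate 3. The Leydig, round spermatid and macrophage lists did not follow *Rnf44*. The Leydig and round spermatid sums were lowest in cKO/Y replicate 1, at 332 and 661 CPM, where *Rnf44* was at 75.1 CPM. Macrophage markers had their lowest sum, 17.5 CPM, in fl/Y replicate 3. Peritubular myoid markers were lowest in cKO/Y replicate 2 (73.4 CPM) and highest in cKO/Y replicates 1 and 3 (121.9 and 121.6 CPM), as *Rnf44* was. Within fl/Y they were lowest in replicate 3 (96.0 CPM), where *Rnf44* was highest. The part of these cell types in the *Rnf44* values was not tested.

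*Rnf111* had the lowest level per kb of the 4 genes in fl/Y. Its values were 25.1, 23.8 and 30.2 CPM in fl/Y and 40.01, 27.3, 25.5 and 35.1 CPM in cKO/Y. Of the cKO/Y libraries, 2 (replicates 1 and 4) lay above the fl/Y range and 2 within it. The fl/Y mean was 26.4 ± 3.39 CPM (SD, n = 3) against 32.0 ± 6.79 CPM in cKO/Y (SD, n = 4), with a log2 fold change of 0.25 ± 0.19 (SE; 95% interval -0.16 to 0.66, 0.896- to 1.58-fold, adjusted p 1.00, limma). The difference was in batch 2 (log2 fold change 0.43) and not in batch 1 (-0.014), a contrast between batches that was not tested. The value was 0.071 without cKO/Y replicate 1, 0.34 without replicate 2 and 0.36 without replicate 3. Without fl/Y replicate 3 it was 0.43, which is the batch 2 estimate again. Of all genes, 236 (1.22%) had an unadjusted p below 0.05 with a higher level in cKO/Y, none of the 3 relatives among them, and none of the 3 was among the 1.34% of genes that were higher without overlap.

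**Figure D2:**
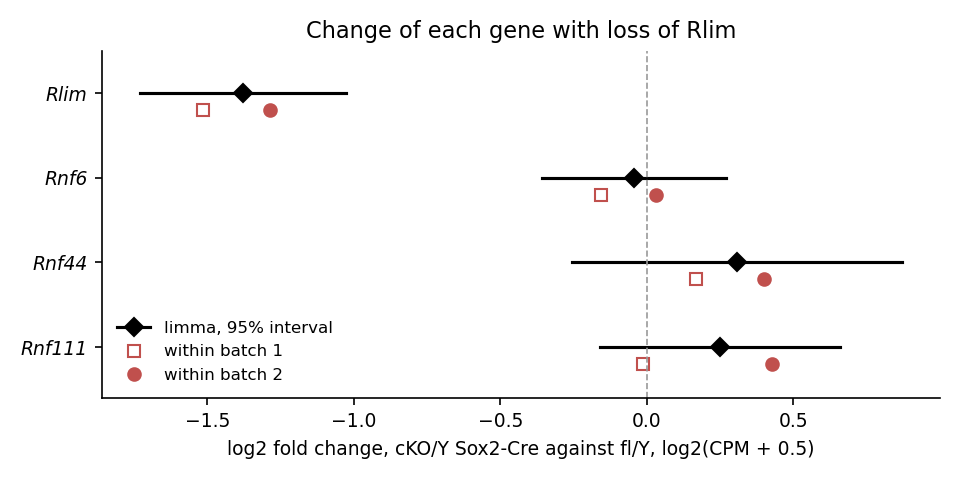
Log2 fold change of each gene, cKO/Y Sox2-Cre against fl/Y (horizontal axis, log2(CPM + 0.5) scale). Diamonds and lines are the limma estimate with its 95% interval, and the red symbols below are the differences of means within each batch. Only the interval of Rlim lies off 0, and for Rnf6 and Rnf111 the batches fall on either side of 0.

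The balance between *Rlim* and each relative was then compared within libraries, where scaling cancels. Since *Rlim* is the targeted gene, a fall of each ratio follows from its own deletion. These tests therefore do not show whether a relative changed. The ratio of *Rlim* to *Rnf6* CPM was 1.42, 1.07 and 0.903 in fl/Y and 0.417, 0.577, 0.363 and 0.332 in cKO/Y. All cKO/Y ratios lay below all fl/Y ratios. On the log2 scale the ratio changed by -1.41 (exact permutation test with 35 arrangements, two-sided p = 0.0286, the smallest the design allows, 0.0429 adjusted over 3 ratios), and by -1.36 within batch 1 and -1.32 within batch 2. The log2 ratio of *Rlim* to *Rnf111* changed by -1.73 (exact permutation p = 0.0286, adjusted 0.0429), with -1.50 and -1.71 within batches 1 and 2. For *Rnf44* the change was as large, -1.88, but the groups overlapped and the test did not pass (exact permutation p = 0.0857, adjusted 0.0857). An exact permutation within batches has 18 arrangements and cannot give less than p = 0.0556, which all 3 ratios reached.

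Per kb of merged exons, *Rnf6* and not *Rlim* was the most abundant of the 4 genes in fl/Y testis. *Rnf6* stood at 16.9 ± 0.46 CPM per kb, *Rlim* at 8.66 ± 2.22, *Rnf44* at 8.19 ± 2.80 and *Rnf111* at 2.98 ± 0.38 CPM per kb (SD, n = 3). *Rnf6* was above *Rlim* in 3 of 3 fl/Y libraries, by 2.00-fold on average, and *Rlim* was above *Rnf111* in 3 of 3, by 2.86-fold. *Rlim* and *Rnf44*, neighbours in the order, did not differ beyond their spread, with *Rlim* higher in 2 of 3 libraries and a mean log2 difference of 0.11 ± 0.84 (SD). With 3 libraries an exact sign-flip permutation test cannot give less than p = 0.25, so this test could not pass for the comparisons with *Rlim*.

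The order depended on the length used. Per kb of coding sequence *Rlim* led with 42.8 ± 10.98 CPM per kb, ahead of *Rnf6* with 34.0 ± 0.91, *Rnf44* with 32.8 ± 11.2 and *Rnf111* with 8.88 ± 1.14 CPM per coding kb (SD, n = 3). *Rlim* then exceeded *Rnf6* in 3 of 3 fl/Y libraries by 1.23-fold on average, with log2 differences from 0.0048 to 0.66. The length of the longest transcript gave the order of merged exons, with *Rnf6* 1.94-fold above *Rlim*. The excess of *Rlim* over *Rnf111* was 4.75-fold per coding kb. Counts per gene do not show which length applies to the *Rlim* mRNA of these testes. The order of *Rlim* and *Rnf6* rests on that length. For an *Rlim* mRNA that ends soon after the stop codon, the length of merged exons would understate its level. *Rnf111* was lowest by each length.

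**Figure D3:**
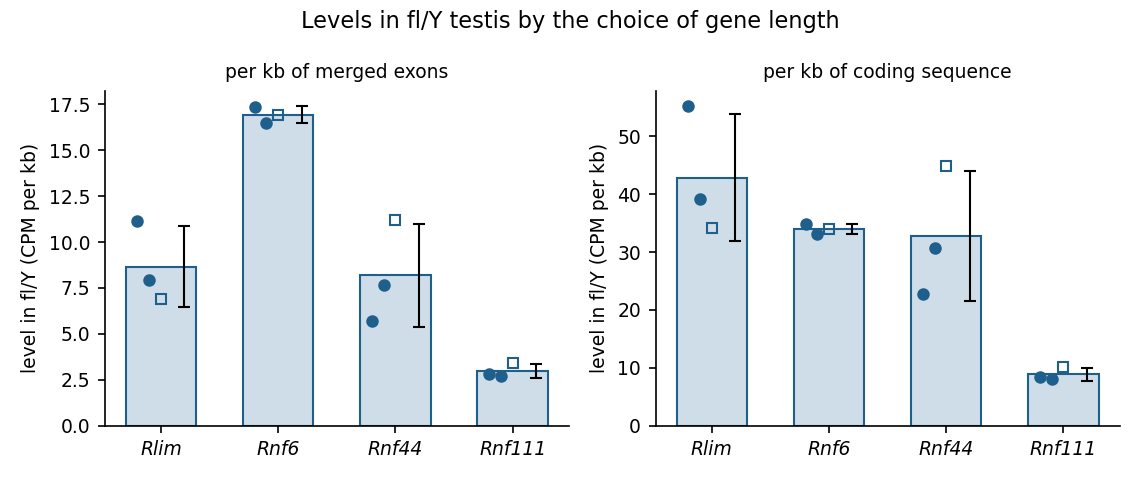
Level of the 4 genes in 3 fl/Y libraries (CPM per kb, axes from 0), divided by the length of merged exons on the left and of coding sequence on the right. Bars are means, error bars SD, filled circles batch 2 and the open square batch 1. Rnf6 leads on the left (16.9 CPM per kb) and Rlim on the right (42.8 CPM per coding kb), and Rnf111 is lowest in both.

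Among the 3 relatives, which were not targeted, all 7 libraries could be used. *Rnf6* exceeded *Rnf111* per kb of merged exons in 7 of 7 libraries, by 5.02-fold on average (exact sign-flip permutation p = 0.0156, the smallest possible, 0.0234 adjusted over 3 pairs). *Rnf44* exceeded *Rnf111* in 7 of 7, by 2.82-fold (exact sign-flip permutation p = 0.0156, adjusted 0.0234). Per coding kb these excesses were 3.38-fold for *Rnf6* and 3.79-fold for *Rnf44*, again in 7 of 7 libraries. *Rnf6* exceeded *Rnf44* in 6 of 7 libraries, by 1.78-fold (exact sign-flip permutation p = 0.0312, adjusted 0.0312), but per coding kb in 3 of 7, with *Rnf44* then 1.12-fold higher on average (exact p = 0.516). The mean log2 difference between *Rnf6* and *Rnf44* per kb of merged exons was 1.10 in fl/Y and 0.63 in cKO/Y.

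Among other RING-H2 ligase genes the 4 were of middle rank. Together with 22 listed relatives, 26 genes were ordered by their level per kb of merged exons in fl/Y, and *Rnf6* came 8th, *Rlim* 12th, *Rnf44* 13th and *Rnf111* 18th. Per coding kb they came 13th, 11th, 14th and 18th. The list was led by *Rnf133* at 113 ± 7.06 CPM per kb and *Znrf4* at 107 ± 57.7 CPM per kb (SD, n = 3), 6.68-fold and 6.29-fold above *Rnf6*. Per coding kb *Rnf181* led, and the excess of *Rnf133* and *Znrf4* over *Rnf6* was 4.16-fold and 3.77-fold. Among the 19370 tested genes with a length, the level of *Rnf6* per kb exceeded 85.4%, that of *Rlim* 74.5%, that of *Rnf44* 73.4% and that of *Rnf111* 50.1%. Among the 14793 with a coding length, *Rlim* exceeded 79.7%, *Rnf6* 75.3%, *Rnf44* 74.5% and *Rnf111* 45.3% per coding kb.

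**Figure D4:**
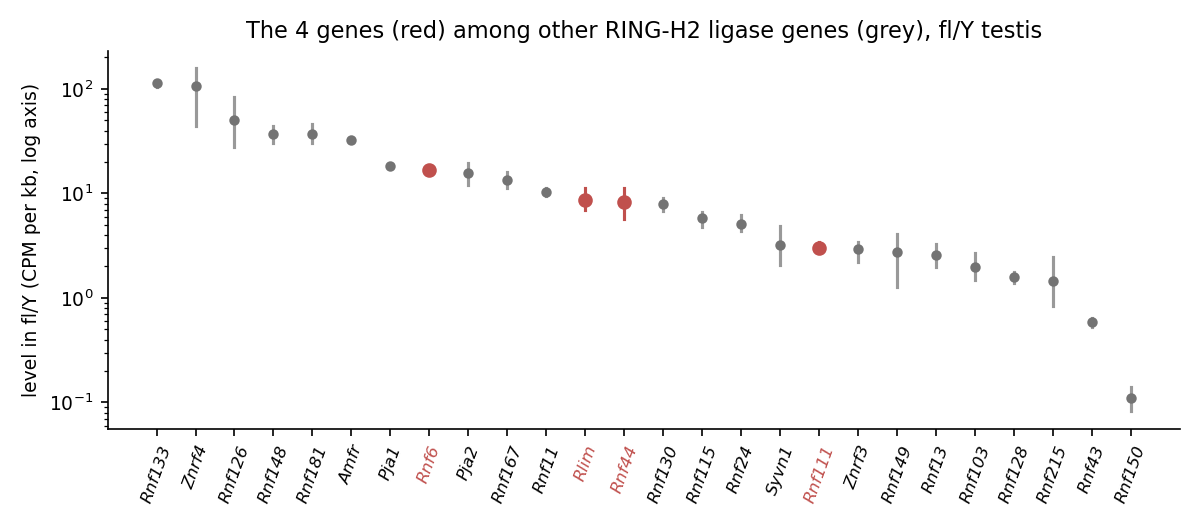
Level in fl/Y testis (CPM per kb of merged exons, log axis) of the 4 genes, in red, and of 22 other RING-H2 ligase genes, in grey, ordered from highest to lowest. Points are means of 3 libraries and lines run from the lowest to the highest library. Rnf6 ranks 8th, with Rlim and Rnf44 adjacent at 12th and 13th and Rnf111 18th of 26.

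On the log2 scale the summed level of the 3 relatives differed between genotypes by less than the SD of either group (0.153 in fl/Y and 0.289 in cKO/Y). In CPM per kb of merged exons it was 25.9, 26.8 and 31.6 in fl/Y and 38.4, 23.7, 32.7 and 30.1 in cKO/Y. The highest and the lowest sum were both cKO/Y libraries of batch 2. Means were 28.1 ± 3.05 (SD, n = 3) and 31.2 ± 6.08 CPM per kb (SD, n = 4), with a difference of 0.14 on the log2 scale (exact permutation test with 35 arrangements, two-sided p = 0.514). Within batch 1 the difference was -0.0088 and within batch 2 it was 0.20. Without cKO/Y replicate 1 it was 0.030, without cKO/Y replicate 2 it was 0.26 and without fl/Y replicate 3 it was 0.22. It was 0.080 without fl/Y replicate 1, and no omission of a library gave an exact permutation p below 0.2.

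The share of *Rlim* in the summed level of all 4 genes fell with its own deletion. It was 30.1%, 22.8% and 17.9% in fl/Y and 8.69%, 14.4%, 6.93% and 7.15% in cKO/Y, per kb of merged exons. The groups did not overlap, and with coding length, where the shares were 45.5%, 35.3% and 27.7% against 14.1%, 24.4%, 10.9% and 11.8%, they did not overlap either. The summed level of all 4 genes was 36.8 ± 1.87 CPM per kb in fl/Y (SD, n = 3) and 34.3 ± 5.98 in cKO/Y (SD, n = 4).

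**Figure D5:**
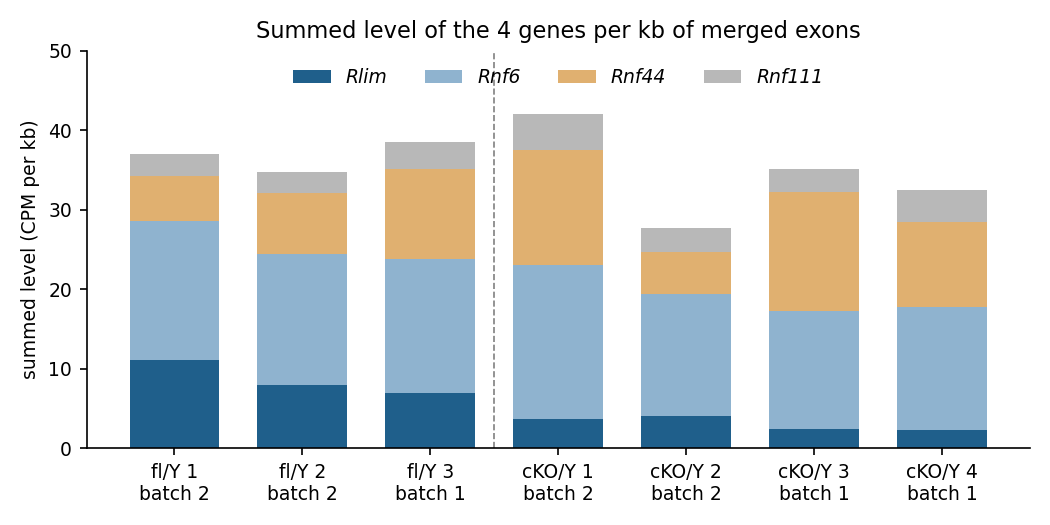
Summed level of the 4 genes (CPM per kb of merged exons, axis from 0) in each library, stacked by gene. The dashed line parts the 3 fl/Y from the 4 cKO/Y libraries. The Rlim part shrinks from 6.90 to 11.2 CPM per kb in fl/Y to 2.32 to 4.00 in cKO/Y, and the whole column is both highest (42.0) and lowest (27.7) in cKO/Y libraries.

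No gene of the ubiquitin pathway around the 4 ligases passed the adjusted threshold. Of 65 genes tested in 5 lists, 0 passed in limma, and 1 passed at an unadjusted p under 0.05, against 2.58% of all genes. The E2 enzymes that serve RING ligases, among them the Ube2d and Ube2e families, had 11 of 11 genes tested, 7 with a log2 fold change below 0 and 4 above, and a median of -0.027, beside -0.0055 over all genes. The smallest p values were those of *Ube2v2* (log2 fold change -0.34; limma, unadjusted p = 0.127, adjusted 1.00), a non-catalytic partner of UBE2N, and *Ube2w* (0.19; unadjusted p = 0.352).

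Known partners and substrates of RLIM had 14 of 18 genes tested, 7 below 0 and 7 above, with a median log2 fold change of 0.00087. *Ldb1*, the LIM domain cofactor, was at 4.35 ± 0.67 CPM in fl/Y and 6.01 ± 1.63 CPM in cKO/Y (log2 fold change 0.37; limma, unadjusted p = 0.212, adjusted 1.00). *Sin3a*, a corepressor scaffold, was at 75.8 ± 10.7 and 88.4 ± 8.07 CPM (log2 fold change 0.20; limma, unadjusted p = 0.196, adjusted 1.00). *Ldb2*, *Lhx3*, *Isl1* and *Myc* were not tested here.

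The TGF-beta genes linked to RNF111 had 15 of 15 tested, 9 below 0 and 6 above, with a median of -0.051. *Smad2*, a receptor-regulated SMAD, was at 25.7 ± 2.98 CPM in fl/Y and 21.8 ± 1.17 CPM in cKO/Y (log2 fold change -0.20; limma, unadjusted p = 0.247, adjusted 1.00), and *Smad4*, the common SMAD, at 18.6 ± 1.06 and 20.8 ± 1.51 CPM (0.17, unadjusted p = 0.330). Partners of RNF6 and RNF44 had 5 of 6 tested, 4 below 0 and 1 above, with a median of -0.016. The smallest p values were those of *Tle3*, a Groucho corepressor (log2 fold change -0.071; limma, unadjusted p = 0.665, adjusted 1.00), and *Limk1* (-0.089, unadjusted p = 0.721).

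The other RING-H2 genes had 22 of 24 tested, 11 below 0 and 11 above, with a median log2 fold change of 0.0044, a count of 0 called in limma and 1 at an unadjusted p under 0.05. That gene was *Syvn1*, a ligase of the endoplasmic reticulum, at 15.5 ± 7.18 CPM in fl/Y (SD, n = 3) and 24.5 ± 9.10 CPM in cKO/Y (SD, n = 4), with a log2 fold change of 0.52 (limma, unadjusted p = 0.0425, adjusted 1.00) and overlapping groups. *Rnf128* followed with a log2 fold change of -0.61 (limma, unadjusted p = 0.0620, adjusted 1.00).

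The genes whose level went most like that of *Rlim* over the 7 libraries were *Plekhh2* (Pearson r = 0.985), *Srpk2* (0.981), an SR protein kinase, and *Synrg* (0.970), of 9377 tested genes with a mean of at least 10 CPM. Their differences between genotypes were far smaller than that of *Rlim*, with log2 fold changes of -0.35, -0.15 and -0.16. For *Rnf6* they were *Dll3* (r = 0.978), a Notch ligand, *Ywhab* (0.975), a 14-3-3 protein, and *Jarid2* (0.973), a component of Polycomb complexes. All 3 were highest in cKO/Y replicate 1, where *Rnf6* was highest as well. *Rnf6* itself had r = 0.412 with *Rlim* and ranked 2464th, while *Rnf44* (-0.576) and *Rnf111* (-0.481) had negative coefficients. These coefficients describe 7 libraries that share genotype, batch and scaling, and carry no test.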

How the data were processed

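RNA-seq of total testis was compared between 4 cKO/Y Sox2-Cre and 3 fl/Y males. The deposited table holds a signal per gene and library, which the authors expressed as CPM. The submitters' processing notes list GRCm38, edgeR, featureCounts and HISAT2 2.1.0. The study's own methods list a different aligner and counter. Values were whole multiples of 1 read to within 0.01 read in 100% of cases, the recovered library scaling equalled edgeR's TMM factors, and reads recovered this way entered alternatives only.

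Genes above 1 CPM in at least 3 libraries (19400) were tested with limma 3.58.1 (R 4.3.3) on log2(CPM + 0.5) with a variance trend and the labelled batch as a term, two-sided, with Benjamini-Hochberg adjustment over all genes and a threshold of 0.05. This scale understates fold changes of low genes. Ratios and sums within libraries were tested by exact permutation, and levels of genes within libraries by exact sign-flip permutation. Gene lengths came from GENCODE M21, whose gene coordinates equal those of the table. Alternatives were other pseudocounts, filters, scalings, designs, edgeR 4.0.16, DESeq2 1.42.0 and the omission of each library. The limma step was checked on simulated data. The labels do not tie a library to an animal, so p-values measure the spread between libraries.

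The 4 genes and the gene lists were chosen with earlier results of these data known. Named in the text were the 4 genes, of each list every gene past the adjusted threshold and otherwise the 2 with the smallest unadjusted p, and the 3 genes that correlate best with *Rlim* and with *Rnf6*. *Rnf133*, *Znrf4* and *Rnf181* were named after their values were seen. Of the listed RING-H2 genes 1 is not reported here, nor is 1 coding stretch.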

Additional observations from a re-analysis of the deposited data

Results flagged for a closer look

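Within the 4 cKO/Y libraries 27 quantities were examined for 1 value far from the other 3 (Dixon's test, for which chance marks about 1 in 20 groups), and 3 were marked. *Rnf6* at 78.2 CPM in cKO/Y replicate 1 stood above the other 3 libraries, which lay between 59.8 and 62.3 CPM. In the same library the summed round spermatid markers, 661 CPM, stood below the other 3, which lay between 754 and 768 CPM, and the summed spermatogonia markers were the highest of all libraries at 83.1 CPM. The part of cell composition in the *Rnf6* value was not tested. *Ldb1* at 3.59 CPM in cKO/Y replicate 2 stood below the other 3, at 6.61 to 7.03 CPM.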

How the results depend on the processing

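The fall of *Rlim* kept its direction in all 20 alternatives. Its log2 fold change was no longer past the threshold without a batch term (-1.47), with the replicate block in place of batch (-1.35, limma adjusted p 0.307), in batch 2 alone (-1.29) and without a variance trend (-1.38). Leaving out single libraries gave -1.52 to -1.28, with the call lost without fl/Y replicate 1 or 3. The number of genes called, 1 in the report, was 0 in each of these 4 settings, 10 with edgeR's likelihood ratio test, and 0 to 3 when single libraries were left out.

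*Rnf6*, *Rnf44* and *Rnf111* passed no threshold in any alternative. The sign of *Rnf6* turned in batch 2 alone (0.030), and leaving out single libraries gave -0.15 to 0.030 for *Rnf6*, -0.074 to 0.64 for *Rnf44*, 0.071 to 0.43 for *Rnf111* and 0.030 to 0.26 for the summed level of the 3 (0.14 with all libraries). The 5 list counts stayed at 0 in all alternatives. Near 0, *Tle3* turned without a batch term (0.074) and over single libraries left out (-0.15 to 0.044), and *Limk1* in batch 2 alone (0.0062) and over single libraries left out (-0.36 to 0.13).

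The change of the *Rlim* to *Rnf6* ratio was -1.41 with permutation within batches, -1.32 in batch 2 alone and -1.31 with the replicate block, and that of *Rlim* to *Rnf111* -1.73, -1.71 and -1.56. These designs, and those with a library left out (-1.57 to -1.23 and -1.98 to -1.50), cannot reach p under 0.05 because they hold too few splits. For levels, coding length turned *Rlim* against *Rnf6* to 0.30 and *Rnf6* against *Rnf44* to -0.17 on the log2 scale. Leaving out single libraries gave -0.33 to 0.51 for *Rlim* against *Rnf44* and 0.70 to 0.97 for *Rnf6* against *Rnf44*, the latter with 6 of 7 exact p values at 0.0625.

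Same-numbered libraries correlated at 0.101, 0.066 and 0.392 after removal of group means, and not every library correlated best with its own number, so the replicate numbers were taken as names only, and the replicate block changed no call other than those given here. *Rlim* in cKO/Y rests on 69 to 206 reads, and its variance between cKO/Y libraries was 8.79 times the counting variance. The variance of each relative between cKO/Y libraries was 4.68 (*Rnf6*), 36.6 (*Rnf44*) and 6.26 (*Rnf111*) times the counting variance, so depth alone does not set the width of their intervals.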
